A study of Mus musculus with 6 samples.

Results

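The genes described here are the 45 peroxisome genes that were looked up by symbol in the deposited table of 17924 genes. They are 13 peroxins (Pex genes), which build the organelle, and 32 enzymes and transporters, most of which work inside it or in its membrane. Peroxisomes are small organelles with 1 membrane that shorten very long and branched fatty acids, make the first bonds of ether lipids and break down the hydrogen peroxide that these oxidations release. They hold no DNA, so their matrix proteins are imported from the cytosol by peroxins that recognise a short targeting signal. Fat cells hold many of them, and several of their enzymes are known targets of the PPAR family of nuclear receptors, whose member Pparg drives fat cell formation.

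RNA-seq was performed on 6 libraries, 3 of CTL and 3 of Nelfb-/- cells (labelled Nelfb KO). The cells were fibroblasts of newborn (P0) mice, taken from the dermis of the back skin and kept for 14 days in adipocyte differentiation medium. CTL cells carried Nelfb wt/wt or Nelfb fl/wt with Pdgfra-Cre+, and Nelfb-/- cells carried Nelfb fl/fl with Pdgfra-Cre+, all on a C57BL/6J background. Nelfb encodes a subunit of NELF, the complex that holds RNA polymerase II shortly after the start of transcription, and the comparison asks how its loss in the preadipocyte lineage changes the RNA of the differentiated culture. Both groups carried the Cre transgene, and deletion can occur only in cells that have used the Pdgfra promoter. The methods of the study call the libraries biological triplicates, and neither these methods nor the labels tie them to separate animals, so the p-values measure the spread between these libraries, which may be in part technical.

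The authors deposited CPM, in which a gene's reads are divided by the total of the library in units of 1e+06. The libraries held 17.2 to 29.4 M reads (M, 1e+06). Where values of 3 libraries are listed, they stand in the order of replicates 1, 2 and 3. The log2 fold change (log2FC) compares Nelfb-/- with CTL cells on the scale log2(reads + 1) and is given ± its standard error (SE). It comes from a limma fit of the whole table, with Benjamini-Hochberg adjustment of p over the 16251 genes tested. A gene is called upregulated or downregulated where it changed at least 2-fold with an adjusted p no higher than 0.05. Nelfb itself had 17.3, 19.6 and 22.3 CPM in the CTL libraries against 5.50, 3.90 and 5.55 in the Nelfb-/- libraries, a log2FC of -1.99 ± 0.22 (limma adjusted p = 0.00502). CTL replicate 3 and Nelfb-/- replicate 1 stood apart from their groups. Fibroblast markers (8 genes) summed to 4367 and 3799.9 CPM in CTL replicates 1 and 2 and to 6467 CPM in Nelfb-/- replicate 1, against 13882 CPM in CTL replicate 3 and 20267 and 22710.4 CPM in Nelfb-/- replicates 2 and 3. Col1a1 and Col1a2 held most of each sum. Lum, Thy1, Ly6a and Cd34 also had their 3 highest values in CTL replicate 3 and Nelfb-/- replicates 2 and 3. Pdgfra and Dcn did not, and Dcn was lowest in CTL replicate 3 (467, 501 and 310 CPM in the CTL libraries). Values of the 45 genes that moved most without CTL replicate 3 or Nelfb-/- replicate 1 are given beside the results or with the colour plot of library differences.

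The labels call the cells adipocytes, and all 10 adipocyte markers looked up were detected in both groups. Their sum lay between 26642 and 43655 CPM in CTL and between 17999 and 26437 CPM in Nelfb-/- libraries, so that the groups were apart by a narrow margin. Fabp4 and Lpl held most of each sum. Singly, 4 of the 10 markers were lower in every Nelfb-/- library, 1 was higher in every one and 5 overlapped. Only Retn was downregulated, and Lep was upregulated. Markers of other cells were also present. Of the 6 macrophage markers 5 were upregulated, and their sum was 154.9 to 606 CPM in CTL and 1570.1 to 4953 CPM in Nelfb-/- libraries. The sums of Schwann cell markers (3 genes, 17.8 to 21.5 CPM in CTL and 80.3 to 104 CPM in Nelfb-/- libraries), skeletal muscle markers (5 genes, 8.96 to 12.0 and 45.2 to 86.8 CPM) and keratinocyte markers (3 genes, 1.77 to 2.28 and 3.18 to 12.2 CPM) were also higher in every Nelfb-/- library, whereas the sums of melanocyte markers (5 genes, 48.6 to 73.7 and 50.7 to 167 CPM) and endothelial markers (4 genes, 6.70 to 10.2 and 6.81 to 18.5 CPM) overlapped. The melanocyte sum included Mitf, which overlapped between the groups (21.6 to 96.3 CPM over the 6 libraries), while the other 4, Dct, Tyr, Pmel and Tyrp1, were upregulated and higher in every Nelfb-/- library (Dct at 0.0902, 0.280 and 0.442 CPM in the CTL libraries against 28.9, 12.0 and 18.8 in the Nelfb-/- libraries). No marker in the table was at 0 in all 6 libraries, and Epcam was not analysed here. The part of this shift in cell markers in the results on peroxisome genes was not tested. In RNA from whole cultures, fewer cells of a type and less RNA per cell cannot be told apart.

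For the 45 genes, changes in Nelfb-/- cells were mostly negative in sign, but only 15 genes were lower past the adjusted p. All 45 genes passed the filter on low values, 37 had a negative log2 fold change and 8 a positive one, and their median was -0.58 where that of all 16251 genes tested was 0.07. Downregulation was called for 8 of the 45 (Ehhadh, Phyh, Hacl1, Pecr, Far2, Crat, Nudt12 and Pxmp4), which compares with 3.64% of all genes tested. None of the 45 was upregulated by limma, where the share of all genes tested was 7.58%, and 0 passed an unadjusted p under 0.05 with at least a 2-fold increase (11.3% of all genes). At an adjusted p of at most 0.05 without the limit on the fold change, 15 were lower (5.83% of all genes) and 2 were higher (9.96% of all genes). At 26 of the 45 genes the Nelfb-/- libraries were all lower than the CTL libraries (16.1% of all genes), at 4 genes they were all higher (22% of all genes), and at the other 15 the groups overlapped. The number of downregulated genes among the 45 was 1 without Nelfb-/- replicate 3 (0.839% of all genes tested in that fit), 2 without CTL replicate 1 (1.49%) or CTL replicate 2 (1.37%), 3 without Nelfb-/- replicate 2 (1.98%), 7 without Nelfb-/- replicate 1 (4.38%) and 11 without CTL replicate 3 (4.75%). A linear model fitted gene by gene, without the moderation of limma, left Phyh, Hacl1 and Pecr downregulated (1.51% of all genes). Without both CTL replicate 3 and Nelfb-/- replicate 1, a comparison of 2 against 2 libraries that was chosen after the data were seen, 13 of the 45 genes were downregulated and 1, Far1, was upregulated, where the shares of all genes tested were 9.37% and 17.7%. The 13 include Cat, whose values in the 2 libraries left out lay with the other group, so its call there carries no weight.

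**Figure D1:**
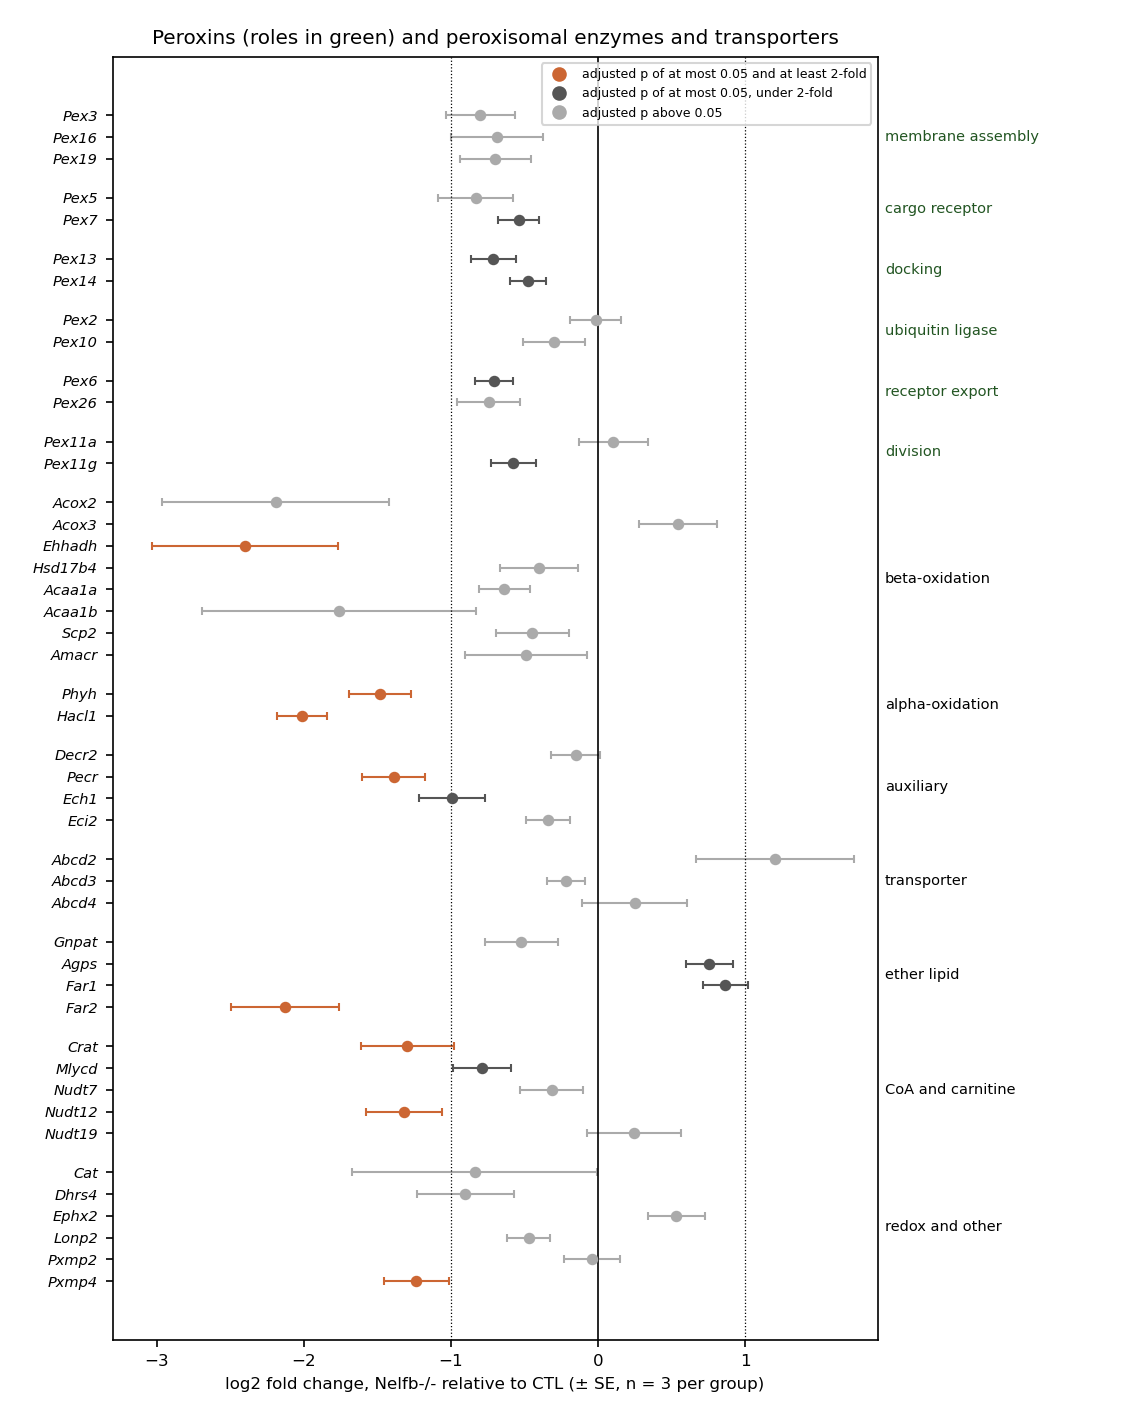
Log2 fold change of each of the 45 genes in Nelfb-/- relative to CTL cells (horizontal axis, points with SE, n = 3 libraries per group), grouped by role. Dotted lines mark a 2-fold change. The 8 downregulated genes lie in 6 of the 7 groups of enzymes, from -2.40 (Ehhadh) to -1.24 (Pxmp4), while the 13 peroxins lie between -0.83 and 0.10.

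The log2 fold changes of the peroxins lay in a narrower range than those of the enzymes and transporters, a contrast that was not tested. The peroxins had a median log2 fold change of -0.68, a range from -0.83 (Pex5) to 0.10 (Pex11a) and no change past 2-fold. For the 32 enzymes and transporters the median was -0.51 and the range ran from -2.40 (Ehhadh) to 1.20 (Abcd2). All 8 downregulated genes were among these 32. By limma 0 of the 13 peroxins were downregulated, where the share of all genes tested was 3.64%, so a count of 0 among 13 is near that share. At the adjusted p alone 5 were lower (5.83% of all genes tested), and 9 were lower with an unadjusted p under 0.05 (12.9%). Summed over the 13 genes, peroxin RNA was 980.3 to 1129 CPM in CTL and 617 to 800.05 CPM in Nelfb-/- libraries, without overlap. The sum of the 32 enzymes and transporters was 2927 to 7016 CPM in CTL and 3318 to 4448 CPM in Nelfb-/- libraries and overlapped. Without Cat, the most abundant of them, the sum of the other 44 genes was 3348 to 4672 CPM in CTL and 2783 to 3681 CPM in Nelfb-/- libraries, which still overlapped.

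Membrane assembly comes first in the life of a peroxisome. Pex19 binds membrane proteins in the cytosol, Pex3 receives it at the membrane and Pex16 brings Pex3 there. In all 6 libraries the 3 genes had a log2FC of -0.80 ± 0.24 (adjusted p = 0.0665) for Pex3, of -0.70 ± 0.24 (adjusted p = 0.0988) for Pex19 and of -0.68 ± 0.31 (adjusted p = 0.186) for Pex16, and none passed in limma. Every Nelfb-/- library was nevertheless below every CTL library at all 3. Pex3 had 51.5, 58.9 and 32.5 CPM in the CTL libraries against 26.9, 28.1 and 24.8 in the Nelfb-/- libraries. CTL replicate 3 was the lowest CTL library there, and without it Pex3 passed both limits at -1.05 (adjusted p = 0.00865), where Pex19 was -0.66 and Pex16 -0.57. Without Nelfb-/- replicate 1 the 3 genes spread out, with Pex3 at -0.81, Pex19 at -0.44 and Pex16 at -0.34.

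The cargo receptors carry enzymes to the membrane. Pex5 reads the signal at the C-terminal end of most matrix proteins, and Pex7 reads the signal near the N-terminal end of a few, among them Phyh, Agps and the thiolases of the Acaa1 pair. Pex5 had 174, 201 and 105 CPM in the CTL libraries against 97.6, 82.8 and 80.5 in the Nelfb-/- libraries. All Nelfb-/- libraries were below all CTL libraries, but CTL replicate 3 lay near them, and the log2FC of -0.83 ± 0.26 (adjusted p = 0.0751) did not pass in limma. Without CTL replicate 3 it was -1.11 (adjusted p = 0.00951). Pex7 was much the more even of the pair, with 17.1, 17.3 and 17.6 CPM in the CTL libraries against 12.5, 11.4 and 12.0 in the Nelfb-/- libraries. The gap between its groups was wider than either group's range, and its log2FC was -0.54 ± 0.14 (limma adjusted p = 0.0462).

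At the membrane the loaded receptor docks on Pex13 and Pex14. Both passed the adjusted p with changes under 2-fold. Pex14 had 113, 124 and 119 CPM in the CTL libraries against 81.8, 93.0 and 81.5 in the Nelfb-/- libraries, a log2FC of -0.48 ± 0.12 (limma adjusted p = 0.0467). Pex13 had 174, 179.6 and 138 CPM in the CTL libraries against 105, 103 and 90.5 in the Nelfb-/- libraries, a log2FC of -0.71 ± 0.15 (limma adjusted p = 0.0285). Neither gene showed an overlap between the groups. An antisense gene of the GENCODE annotation, Gm17029, lies over 28.3% of the exon bases of Pex14, and whether reads were counted by strand is not given in the sources used here, so a part of the reads of Pex14 may belong to it. Its own mean was 3.76 CPM.

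After cargo release the receptor is marked with ubiquitin by a complex that holds Pex2 and Pex10, and it is pulled out with the help of the ATPase Pex6, which Pex26 anchors. Neither ligase gene passed. Pex2 had a log2FC of -0.02 ± 0.17 (adjusted p = 0.961) with a 95% interval from -0.43 to 0.40, Pex10 one of -0.30 ± 0.21 (adjusted p = 0.376) with an interval from -0.81 to 0.21, and the groups overlapped at both. The export genes Pex6 and Pex26 lay at -0.70 and -0.74. Pex6 had 69.9, 78.8 and 63.5 CPM in the CTL libraries against 44.1, 43.2 and 42.4 in the Nelfb-/- libraries. Its 3 Nelfb-/- libraries lay close together, and it had the smallest adjusted p of the peroxins, with a log2FC of -0.70 ± 0.13 (limma adjusted p = 0.0175). Pex26 was lower in every Nelfb-/- library (CTL 15.5 ± 3.79 CPM, Nelfb-/- 9.09 ± 0.700 CPM, mean ± SD, n = 3) with an adjusted p of 0.0626.

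Pex11 proteins, the division factors, bend and lengthen the membrane before it splits. Pex11g had 12.0, 12.9 and 12.9 CPM in the CTL libraries against 8.64, 8.20 and 8.47 in the Nelfb-/- libraries, with no overlap and a log2FC of -0.58 ± 0.15 (limma adjusted p = 0.0492). Pex11a had 80.1, 82.7 and 62.7 CPM in the CTL libraries against 58.7, 100.3 and 87.8 in the Nelfb-/- libraries, and the groups overlapped (log2FC 0.10 ± 0.23, adjusted p = 0.791, 95% interval from -0.45 to 0.66). Its direction turned to -0.02 without CTL replicate 3 and to -0.06 without Nelfb-/- replicate 2. Gm44775, a transcript on the other strand that awaits experimental proof, had a mean of 1.37 CPM and covers 41.1% of the exon bases of Pex11g. Of the 5 peroxins that passed the adjusted p, Pex6 and Pex13 still passed in 2 of the 6 fits that left out 1 library, Pex7 in 1, and Pex14 and Pex11g in 0, with the adjusted p reaching 0.0918 for Pex6 and 0.196 for Pex14 without 1 library.

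Branched fatty acids that beta-oxidation cannot start on, such as phytanic acid, first lose 1 carbon by alpha-oxidation. Phyh hydroxylates phytanoyl-CoA and Hacl1 then splits off the extra carbon. Both genes of this short pathway were downregulated, and they were the pair with the smallest adjusted p values among the 45. Hacl1 (ENSMUSG00000021884, chr14:31598730-31641286 on GRCm38, minus strand) had 47.6, 41.6 and 40.6 CPM in the CTL libraries against 9.03, 10.9 and 12.4 in the Nelfb-/- libraries. Its log2FC was -2.01 ± 0.17 (limma adjusted p = 0.00335), a 4.04-fold decrease, and it was the one member that stayed downregulated whichever library was left out (-2.12 to -1.89). Phyh (ENSMUSG00000026664, chr2:4919019-4938730, plus strand) had 111, 114 and 79.2 CPM in the CTL libraries against 44.6, 33.4 and 30.9 in the Nelfb-/- libraries. The lowest CTL library was thus well above the highest Nelfb-/- library, and the log2FC was -1.48 ± 0.21 (limma adjusted p = 0.00927). Without Nelfb-/- replicate 3 its adjusted p was 0.0537. Gm49387, annotated on the same strand as Hacl1 with a mean of 0.252 CPM, shares 31.1% of its exon bases, so reads of Hacl1 could have been assigned to either.

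The promoter of Hacl1 is shown because Hacl1 stayed downregulated whichever library was left out. The window runs from 250 bases before to 50 bases after the RefSeq start (GRCm38.p6, chr14:31640916-31641215, minus strand), and capitals mark the GC box GGGCGG or its complement CCGCCC, the letters that Sp family factors are known to bind.
Hacl1: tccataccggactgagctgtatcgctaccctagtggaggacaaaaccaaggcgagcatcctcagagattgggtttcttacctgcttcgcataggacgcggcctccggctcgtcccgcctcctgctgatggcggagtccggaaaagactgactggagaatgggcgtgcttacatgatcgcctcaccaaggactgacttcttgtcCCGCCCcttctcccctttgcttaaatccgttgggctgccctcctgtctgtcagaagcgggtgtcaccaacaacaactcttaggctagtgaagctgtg
A window was given for 35 of the 45 genes. A GC box on either strand stood in 26 of these 35 (74.3%), in 9 of 11 peroxins and in 17 of 24 enzymes and transporters, beside 66.9% of the 11211 genes tested that had a window and 38.2% of all 27025 genes with one. No test was made of these shares, and a GC box is a description of letters, not of binding.

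Beta-oxidation proper held Ehhadh, the gene with the lowest log2 fold change of the 45. An oxidase (Acox2 or Acox3 for branched chains), a bifunctional enzyme (Ehhadh or Hsd17b4) and a thiolase (Acaa1a, Acaa1b or Scp2) act in turn, and Amacr turns branched substrates into the form that the oxidases accept. Of these 8 genes 7 had a negative log2 fold change and 1, Ehhadh, was downregulated. Ehhadh (chr16:21761287-21787807, minus strand) had 163, 128 and 29.0 CPM in the CTL libraries against 20.6, 13.6 and 14.6 in the Nelfb-/- libraries. CTL replicate 3 lay much nearer to the Nelfb-/- libraries than to the other CTL libraries, though still above all of them. The log2FC was -2.40 ± 0.63 (limma adjusted p = 0.0490) with a 95% interval from -3.92 to -0.88. It was lost as a call when any library but CTL replicate 3 was left out (adjusted p up to 0.158), and without CTL replicate 3 it was -3.17 (adjusted p = 0.00405). The call was also lost with a pseudocount of 1 CPM (adjusted p = 0.0503) and without the abundance trend of limma (0.0675).

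The thiolase genes Acaa1a and Acaa1b are close copies that lie 182.6 kb apart on chromosome 9, and reads could be split between them. Acaa1a had 125, 125 and 101 CPM in the CTL libraries against 89.7, 65.6 and 71.1 in the Nelfb-/- libraries. Every Nelfb-/- library was lower, and the log2FC of -0.64 ± 0.17 (adjusted p = 0.0525) lay just outside the limit on p, which it passed without CTL replicate 3 (-0.74, adjusted p = 0.0330) or without Nelfb-/- replicate 1 (-0.77, adjusted p = 0.0264). Acaa1b, which overlapped between the groups, had 125, 149.9 and 12.6 CPM in the CTL libraries against 25.1, 19.9 and 12.2 in the Nelfb-/- libraries. Its 2 high libraries were CTL replicates 1 and 2, where its level per exon length was above that of Acaa1a (Acaa1a over Acaa1b 0.446 and 0.372), while in the other 4 libraries Acaa1a was the higher (ratios of 1.47 to 3.54). These ratios depend on the merged exon lengths, 4414 bases for Acaa1a and 1962 for Acaa1b. In CPM the 2 genes were nearly equal in CTL replicate 1. The log2 fold change of Acaa1b was -1.76 ± 0.93 (adjusted p = 0.244), and it reached -2.90 (adjusted p = 0.00692) once CTL replicate 3 was left out.

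Acox2 was the least abundant of the 45 genes, at 1.89, 2.80 and 1.22 CPM in the CTL libraries against 1.19, 0.116 and 0.326 in the Nelfb-/- libraries. Nelfb-/- replicate 2 was under the floor of 3 reads (0.175 CPM in that library). Nelfb-/- replicate 1 was almost level with CTL replicate 3, and the log2FC of -2.19 ± 0.77 (adjusted p = 0.105) did not pass. Without Nelfb-/- replicate 1 it was -2.97 (adjusted p = 0.0261). Acox3 was higher in every Nelfb-/- library (CTL 41.9 ± 11.7 CPM, Nelfb-/- 60.2 ± 13.4 CPM, mean ± SD, n = 3) without passing (log2FC 0.54 ± 0.26, adjusted p = 0.211). Hsd17b4 (log2FC -0.40 ± 0.26, adjusted p = 0.340), Scp2 (log2FC -0.45 ± 0.25, adjusted p = 0.271) and Amacr (log2FC -0.49 ± 0.42, adjusted p = 0.462) overlapped between the groups.

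Double bonds in the chain need auxiliary enzymes such as Decr2, Ech1 and Eci2. Pecr, a reductase of trans-2-enoyl-CoA, was listed with them, and its result is not one about double bonds in the chain. Pecr was downregulated, at 11.3, 10.6 and 8.98 CPM in the CTL libraries against 3.22, 4.13 and 4.41 in the Nelfb-/- libraries, with a log2FC of -1.39 ± 0.22 (limma adjusted p = 0.0112). Its highest Nelfb-/- library was under its lowest CTL library by more than the range of either group. Without CTL replicate 1, CTL replicate 2 or Nelfb-/- replicate 3 its adjusted p exceeded the limit, up to 0.0555. Ech1, a dienoyl-CoA isomerase that is also found in mitochondria, had 176, 163 and 222 CPM in the CTL libraries against 70.6, 116 and 99.2 in the Nelfb-/- libraries. Its log2FC of -0.99 ± 0.22 (limma adjusted p = 0.0313) lay just under 2-fold, and it became a downregulated gene at -1.06 with median-of-ratios or upper quartile scaling. With 1 library left out it ran from -1.15 to -0.79 and kept its adjusted p in 1 of the 6 fits (up to 0.105). Decr2 (log2FC -0.15 ± 0.17, adjusted p = 0.575) and Eci2 (log2FC -0.34 ± 0.15, adjusted p = 0.170) did not pass.

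**Figure D2:**
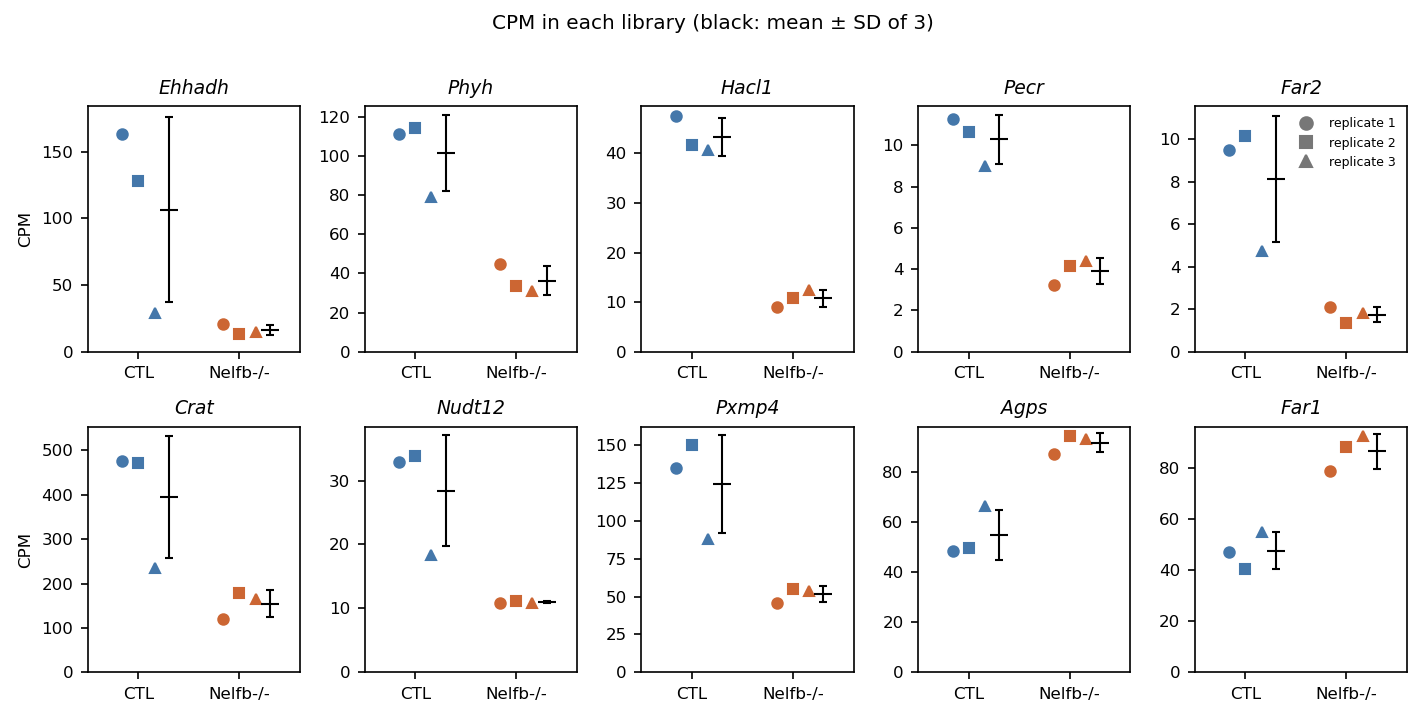
CPM of the 8 downregulated genes and of Agps and Far1 in each of the 6 libraries (blue, CTL; orange, Nelfb-/-; symbols mark replicates 1 to 3; black bars, mean ± SD, n = 3). In all 8 downregulated genes the 3 Nelfb-/- libraries lie below the 3 CTL libraries and CTL replicate 3 is the lowest CTL library, and at Agps and Far1 the lowest Nelfb-/- libraries (87.2 and 78.8 CPM) lie above the highest CTL libraries (66.2 and 55.1 CPM).

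Ether lipid synthesis moved both ways. Gnpat and Agps make the first intermediates of plasmalogens inside the peroxisome, and Far1 and Far2 make the fatty alcohol that Agps puts into the ether bond. Agps had 48.3, 49.8 and 66.2 CPM in the CTL libraries against 87.2, 94.4 and 93.1 in the Nelfb-/- libraries, a log2FC of 0.76 ± 0.16 (limma adjusted p = 0.0255). Far1 had 47.3, 40.6 and 55.1 CPM in the CTL libraries against 78.8, 88.1 and 92.5 in the Nelfb-/- libraries, a log2FC of 0.87 ± 0.16 (limma adjusted p = 0.0166). These were the 2 of the 45 genes that were higher past the adjusted p, both under 2-fold and both without overlap. Each still passed in 2 of the 6 fits that left out 1 library, those without CTL replicate 3 and without Nelfb-/- replicate 1, and otherwise the adjusted p rose to 0.111 for Agps and 0.0856 for Far1. Gnpat, the partner of Agps, had 197, 206 and 113 CPM in the CTL libraries against 107, 121 and 119 in the Nelfb-/- libraries. The groups overlapped by CTL replicate 3, and the log2FC was -0.52 ± 0.25 (adjusted p = 0.200), or -0.80 (adjusted p = 0.0130) in the fit that left this library out. Per exon length the ratio of Agps to Gnpat was 0.094, 0.092 and 0.223 in CTL and 0.311, 0.297 and 0.297 in Nelfb-/- replicates 1, 2 and 3, so that Gnpat was the more abundant in every library.

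Far2 was downregulated, at 9.48, 10.1 and 4.72 CPM in the CTL libraries against 2.09, 1.36 and 1.81 in the Nelfb-/- libraries, with a log2FC of -2.13 ± 0.37 (limma adjusted p = 0.0145), a 4.37-fold decrease. Its call was lost without CTL replicate 1, CTL replicate 2, Nelfb-/- replicate 2 or Nelfb-/- replicate 3 (adjusted p up to 0.0662). The paralogs therefore went opposite ways. Far1 was 4.52, 3.64 and 10.6 times as abundant as Far2 per exon length in CTL replicates 1, 2 and 3 and 34.3, 59.0 and 46.4 times in Nelfb-/- replicates 1, 2 and 3. Far2 shares 11.4% of its exon bases with Ergic2 on the other strand, which was measured at a mean of 54.8 CPM. Both promoters are shown since the paralogs moved apart (GRCm38.p6, Far1 at chr7:113513584-113513883, plus strand and Far2 at chr6:148047166-148047465, plus strand), again with GC boxes in capitals.
Far1: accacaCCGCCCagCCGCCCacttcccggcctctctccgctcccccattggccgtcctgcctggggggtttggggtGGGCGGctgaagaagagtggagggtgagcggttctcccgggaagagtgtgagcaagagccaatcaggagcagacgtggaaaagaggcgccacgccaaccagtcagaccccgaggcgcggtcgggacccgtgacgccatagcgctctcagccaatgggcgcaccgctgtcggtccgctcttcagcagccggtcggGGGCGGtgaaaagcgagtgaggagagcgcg
Far2: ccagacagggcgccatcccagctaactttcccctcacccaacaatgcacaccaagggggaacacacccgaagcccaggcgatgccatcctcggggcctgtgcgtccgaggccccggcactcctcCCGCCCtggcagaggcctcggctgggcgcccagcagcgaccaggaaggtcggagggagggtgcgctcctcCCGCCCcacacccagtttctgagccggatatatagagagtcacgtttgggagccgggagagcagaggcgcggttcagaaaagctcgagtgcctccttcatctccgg
The Far1 window held 4 GC boxes and the Far2 window 2, with a GC content of 67.7% and 66.0%, where the median over the 35 genes was 58.0%.

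The list held 3 ABC half-transporters of the D family, of which Abcd2 and Abcd3 bring fatty acids into the peroxisome, and none of the 3 passed the adjusted p. Abcd3, the abundant membrane protein also known as PMP70, had 97.7, 94.3 and 99.6 CPM in the CTL libraries against 74.4, 91.7 and 85.2 in the Nelfb-/- libraries. Every Nelfb-/- library was lower, but by little (log2FC -0.22 ± 0.13, adjusted p = 0.294, 95% interval from -0.53 to 0.09). Abcd2, which carries very long unsaturated chains, had 234, 261 and 76.7 CPM in the CTL libraries against 239, 574 and 417 in the Nelfb-/- libraries. It had the highest log2 fold change of the 45 genes, 1.20 ± 0.54 (adjusted p = 0.179), yet Nelfb-/- replicate 1 overlapped the CTL libraries and CTL replicate 3 stood far under the rest. The log2FC was 0.64 (adjusted p = 0.261) when CTL replicate 3 was left out and 1.55 (adjusted p = 0.111) when Nelfb-/- replicate 1 was. Abcd4, which acts in lysosomes in vitamin B12 transport although it belongs to the same family, was 17.3, 18.6 and 18.6 CPM in the CTL libraries against 38.8, 15.7 and 16.5 in the Nelfb-/- libraries. Its positive value of 0.25 came from Nelfb-/- replicate 1, and without that library it was -0.17.

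Products leave the peroxisome as carnitine esters or after CoA is removed. Crat, the carnitine acetyltransferase of peroxisomes and mitochondria, was downregulated, at 477, 472 and 235 CPM in the CTL libraries against 121, 179 and 165 in the Nelfb-/- libraries, with a log2FC of -1.30 ± 0.32 (limma adjusted p = 0.0400). CTL replicate 3 lay between the other CTL libraries and the Nelfb-/- libraries, nearer to the latter. Its call was lost without any single library other than CTL replicate 3 (adjusted p up to 0.137) and without the abundance trend of limma (adjusted p = 0.0563). Nudt12, a nudix hydrolase of NADH, was downregulated from 32.9, 33.9 and 18.4 CPM in the CTL libraries to 10.9, 11.1 and 10.9 in the Nelfb-/- libraries, which were nearly equal to each other. Its log2FC was -1.32 ± 0.26 (limma adjusted p = 0.0210), and the call was lost without CTL replicate 1, CTL replicate 2, Nelfb-/- replicate 2 or Nelfb-/- replicate 3 (adjusted p up to 0.0873). Mlycd, malonyl-CoA decarboxylase, passed the adjusted p with a change under 2-fold (log2FC -0.79 ± 0.20, limma adjusted p = 0.0437) and still passed in 1 of the 6 fits that left out 1 library (adjusted p up to 0.155). The CoA hydrolases Nudt7 (log2FC -0.31 ± 0.22, adjusted p = 0.361) and Nudt19 (log2FC 0.24 ± 0.32, adjusted p = 0.637) overlapped between the groups.

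Cat, which encodes the catalase that removes hydrogen peroxide, was by far the most abundant of the 45 genes, with 953 ± 640.02 CPM per kb of exon in CTL cells (mean ± SD, n = 3). Its groups overlapped widely. Cat had 3439.6, 3473 and 559.7 CPM in the CTL libraries against 2282, 687 and 748 in the Nelfb-/- libraries. CTL replicate 3 was thus the lowest of the 6 libraries, and Nelfb-/- replicate 1 stood with the CTL libraries. The log2FC was -0.84 ± 0.83 (adjusted p = 0.530) with a 95% interval from -2.83 to 1.16, so neither a large decrease nor a 2-fold increase lies outside it. It was -1.71 (adjusted p = 0.0848) without CTL replicate 3 alone and -1.39 (adjusted p = 0.281) without Nelfb-/- replicate 1 alone. Without CTL replicate 3 and Nelfb-/- replicate 1, the remaining 2 against 2 libraries gave -2.27, for which no p is given because the libraries left out are those whose Cat values lay with the other group. The 3 libraries with low Cat were the 3 with the highest sums of fibroblast markers, sums held mostly by Col1a1 and Col1a2. The part of this in the result was not tested.

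The promoter of Cat is shown because it held a match to the DR1 element, a pair of half-sites AGGTCA 1 base apart that PPAR and RXR receptors bind (GRCm38.p6, chr2:103485104-103485403, minus strand). The match, in capitals, lay on the strand of the gene at chr2:103485345-103485357, began 204 bases before the RefSeq start and had 2 differences from the element, the most that were allowed.
Cat: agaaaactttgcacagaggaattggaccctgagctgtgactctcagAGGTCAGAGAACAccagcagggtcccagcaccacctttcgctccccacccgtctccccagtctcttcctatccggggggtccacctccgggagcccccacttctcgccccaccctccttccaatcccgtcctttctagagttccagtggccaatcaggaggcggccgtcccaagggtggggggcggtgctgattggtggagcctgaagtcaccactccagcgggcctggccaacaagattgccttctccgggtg
Among the 35 genes with a window, 2 held such a match on either strand (Cat and Acox2), which is 5.71% beside 4.40% of all 27025 genes and 3.43% of the genes tested that had a window. None of the 6 downregulated genes with a window held one. Such a match is a description of letters and does not show binding.

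The remaining members were mixed. Pxmp4, a peroxisomal membrane protein, was downregulated, at 135, 149.9 and 88.2 CPM in the CTL libraries against 45.8, 55.3 and 53.8 in the Nelfb-/- libraries, with a log2FC of -1.24 ± 0.22 (limma adjusted p = 0.0166). The groups were apart, and the call was lost without CTL replicate 1, CTL replicate 2, Nelfb-/- replicate 2 or Nelfb-/- replicate 3 (adjusted p up to 0.0710). Pxmp2, a channel protein of the same membrane, had 5.49 ± 0.480 CPM in CTL against 5.33 ± 0.271 CPM in Nelfb-/- cells (mean ± SD, n = 3) and a log2FC of -0.04 ± 0.19 (adjusted p = 0.907). Ephx2, the soluble epoxide hydrolase, was higher in every Nelfb-/- library, at 341, 337 and 249 CPM in the CTL libraries against 384, 488 and 462 in the Nelfb-/- libraries, without passing (log2FC 0.53 ± 0.19, adjusted p = 0.111). The matrix protease Lonp2 (log2FC -0.47 ± 0.15, adjusted p = 0.0766) and the carbonyl reductase Dhrs4 (log2FC -0.90 ± 0.33, adjusted p = 0.115) were lower in every Nelfb-/- library without passing. Exon bases were shared with genes on the other strand at Nudt19 (35%), Pecr (11.5%), Acaa1b (11.4%), Pxmp2 (10.8%), Crat (7.63% with Gm16323) and Nudt12 (7.34%).

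**Figure D3:**
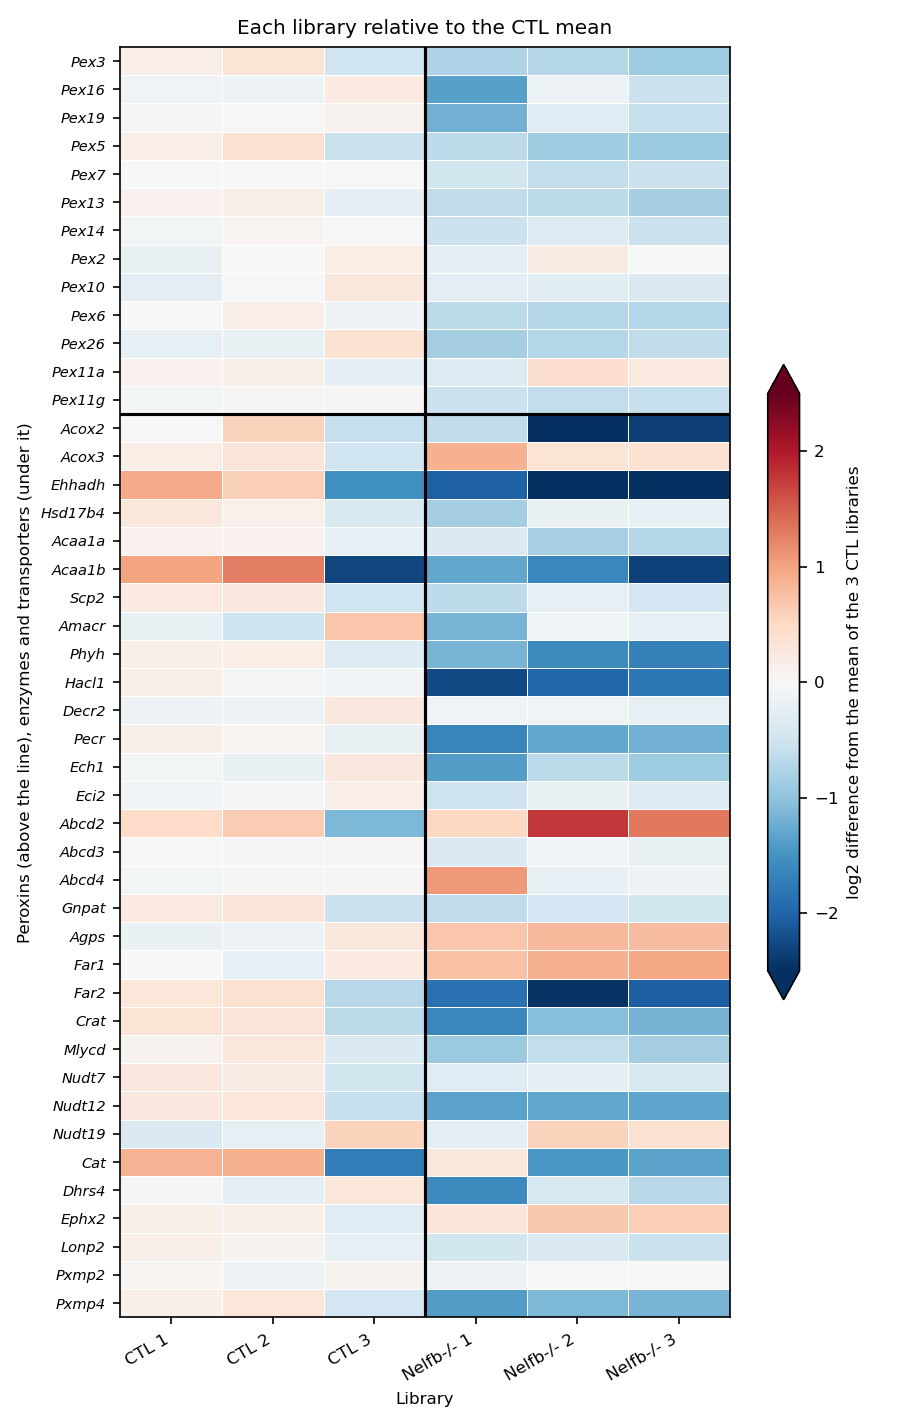
Log2 difference of each library (columns) from the mean of the 3 CTL libraries for each of the 45 genes (rows, peroxins above the line; blue, lower; red, higher). The median over the 13 peroxins was -0.05, 0.04 and 0.02 in CTL and -0.63, -0.61 and -0.57 in Nelfb-/- replicates 1, 2 and 3, while Cat, Acaa1b and Ehhadh are low in CTL replicate 3.

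In the colour plot of library differences, the median of the 13 peroxins lay between -0.05 and 0.04 in the 3 CTL libraries and from -0.63 to -0.57 in the 3 Nelfb-/- libraries. For the 32 enzymes and transporters it was 0.14, 0.13 and -0.32 in CTL replicates 1, 2 and 3 and -0.64, -0.40 and -0.52 in Nelfb-/- replicates 1, 2 and 3, with CTL replicate 3 under the other CTL libraries. The same median over all genes tested lay between -0.02 and 0.08 in all 6. CTL replicate 3 was nearer to the Nelfb-/- mean than to the mean of the other CTL libraries at 17 of the 45 genes (37.8%), and this was so at 49.2% of all genes tested. Nelfb-/- replicate 1 was nearer to the CTL mean at 9 of the 45 (20%), where the share of all genes was 46.3%. These shares are given without a test. In the fit without CTL replicate 3, Scp2 (-0.69, adjusted p = 0.0430), Nudt7 (-0.55, adjusted p = 0.0280) and Lonp2 (-0.58, adjusted p = 0.0257) also passed the adjusted p, with changes under 2-fold, while Amacr was -0.14, Acox3 0.29, Pex10 -0.15 and Decr2 -0.01. In the fit without Nelfb-/- replicate 1, Dhrs4 was -0.56, Hsd17b4 -0.18 and Amacr -0.15, all 3 nearer to 0 than in the 6 libraries. Nudt19 was farther from 0, at 0.53 without CTL replicate 3 and 0.49 without Nelfb-/- replicate 1.

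Levels between genes were compared per kb of exon. In CTL cells they ran from 0.533 ± 0.214 (Acox2) to 953 ± 640.02 CPM per kb (Cat, mean ± SD, n = 3), with a median of 14.9 CPM per kb in CTL and 11.4 CPM per kb in Nelfb-/- cells over the 45 genes. After Cat came Ephx2 (124 ± 20.8), Scp2 (106 ± 28.2) and Ech1 (82.0 ± 13.5), whose values lay within their SDs of the next in the order. The peroxins ran from 1.43 ± 0.0184 (Pex7) to 64.5 ± 3.32 CPM per kb (Pex19). The receptor Pex5 (40.6 ± 12.6) was thus far more abundant than the receptor Pex7. Levels per kb depend on the merged exon lengths, 3943 bases for Pex5 and 12092 for Pex7. In CPM the CTL means of these receptors were 160 and 17.3. The downregulated genes were spread over this range, from Far2 (1.11 ± 0.405) to Crat (73.2 ± 25.6).

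**Figure D4:**
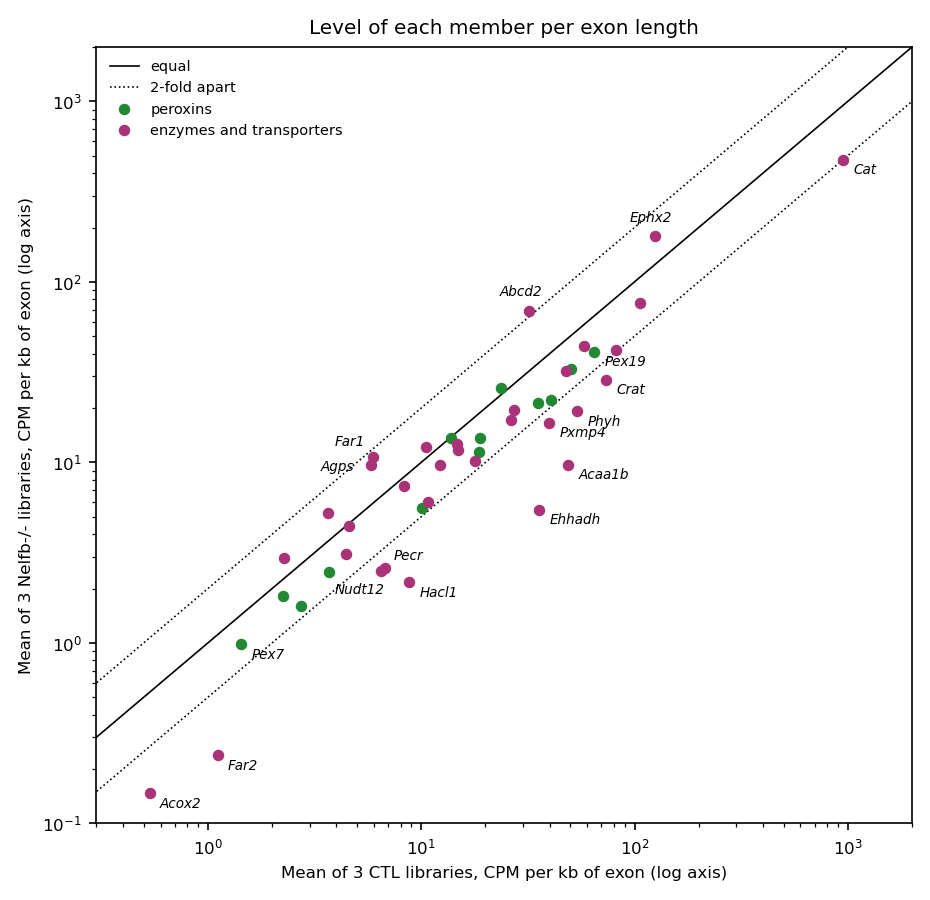
Mean level of each gene in CTL (horizontal) and Nelfb-/- cells (vertical), both in CPM per kb of exon on log axes, n = 3 libraries each. The solid line marks equal levels and the dotted lines a 2-fold difference. Levels in CTL cells run from 0.533 (Acox2) to 953 CPM per kb (Cat), and Hacl1, Ehhadh, Acaa1b, Far2 and Acox2 lie farthest under the line.

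Other peroxisomal genes were looked up for comparison, from a list of 41 of which 33 were analysed here and 32 were tested. Their median log2 fold change was -0.16, with 22 negative and 10 positive, and 2 were downregulated, the glutathione transferase Gstk1 (log2FC -1.20 ± 0.22, adjusted p = 0.0178) and the D-aspartate oxidase Ddo (log2FC -2.37 ± 0.41, adjusted p = 0.0144). For this and the next 2 lists, the shares of all genes tested were 3.64% downregulated and 7.58% upregulated. Fatty acids are also oxidised in mitochondria, and of the 20 genes of that pathway 18 were negative with a median of -0.95. Of these 20 genes 9 were downregulated, among them Cpt1b (log2FC -2.74 ± 0.37, adjusted p = 0.00803), Echs1 (log2FC -1.56 ± 0.14, adjusted p = 0.00353) and Etfb (log2FC -1.52 ± 0.23, adjusted p = 0.0112), and 1, Cpt1a, was upregulated (log2FC 1.13 ± 0.28, adjusted p = 0.0389). With 1 library left out at a time, the calls of Cpt1b and Echs1 held in 6 of 6 fits and that of Etfb in 5, whereas those of Cpt1a, Hadh and Acadm held in 0. The calls of Gstk1 and Ddo held in 2 and 3 of the 6. Of 7 genes for PPAR receptors, their RXR partners and the PGC-1 coactivators, 6 were negative with a median of -0.51, and only the coactivator Ppargc1b was downregulated (log2FC -1.06 ± 0.17, adjusted p = 0.0128), a call that held in 1 of the 6 such fits and was -0.97 without CTL replicate 3 and -0.98 without Nelfb-/- replicate 1. Pparg itself was 158, 149.6 and 112 CPM in the CTL libraries against 98.5, 109.6 and 85.2 in the Nelfb-/- libraries, below CTL in every Nelfb-/- library (log2FC -0.51 ± 0.18, adjusted p = 0.111). Its value was -0.66 (adjusted p = 0.0328) without CTL replicate 3 and -0.52 (adjusted p = 0.136) without Nelfb-/- replicate 1. The lists were written with results of these data known, and no difference between them was tested. All adjusted p values in this paragraph are from limma.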

How the data were processed

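RNA-seq values of 45 peroxisome genes were taken from a table of 17924 genes in 6 libraries. Per the submitters' processing notes, reads were handled with STAR (2.7) and Partek (9.0.20.0202) on mm10, and the methods of the study name DESeq2 for the alignment and an ANOVA with limits of 10 reads, an adjusted p of 0.05 and 2-fold. The values deposited by the authors are CPM without a correction for length, to which 0.0001 had been added, and the counting and its use of strand are not given in the sources used here. The offset was removed, and the step between low values gave the depth of each library (17.2 to 29.4 M reads). Only 72.7% to 75.2% of values up to 20 reads were whole within 0.05 reads, so no count model was run. CPM were put on a scale of reads at 1 depth for all libraries (22.3 M), and 16251 genes whose mean reached 10 reads (0.448 CPM) were tested with limma (3.58.1, R 4.3.3, abundance trend) on log2(reads + 1), after the fit was tested on simulated data. Positions and exon lengths (merged exons) are from GENCODE vM21 (GRCm38), in which 17520 genes were matched, and promoters from RefSeq (GRCm38.p6). Every gene of the 45 is accounted for. Values per library are given for each gene called and for Cat, Pex5, Pex14, Abcd3, Gnpat, Phyh and Acaa1a, and other genes were given them after their values were seen. The 45 genes, the other lists and the roles were chosen with earlier results of these data known. Protein sequences were not analysed here. An exact permutation test of 3 against 3 libraries cannot give a p below 0.1 and was not used. Of 16 alternatives, 15 were planned and 1 was added after the data were seen.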

Additional observations from a re-analysis of the deposited data

How the results depend on the processing

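The number of peroxisome genes downregulated rested on single libraries. With 1 library left out it was 1 to 11 of the 45 (1 to 9 of the 32 enzymes and transporters, 0 to 2 of the 13 peroxins), and 0 were upregulated, while 0.839% to 4.75% of all genes were lower and 1.79% to 10.4% higher. At the adjusted p alone, 1 to 15 enzymes and transporters and 0 to 4 peroxins were lower and 0 to 2 of the 45 higher, beside 0.851% to 7.92% and 1.83% to 14.6% of all genes. Median log2 fold changes kept their sign, from -0.70 to -0.56 for peroxins and from -0.72 to -0.40 for enzymes and transporters, and Nelfb lay between -2.08 and -1.82. Without CTL replicate 3 and Nelfb-/- replicate 1 together, 13 genes were downregulated, 2 of them peroxins, and 1 was upregulated (9.37% and 17.7% of all genes). Cat was among the 13, and its values in the libraries left out lay with the other group. At the adjusted p alone 19 enzymes and transporters and 9 peroxins were then lower and 5 of the 45 higher (24.7% and 33.1% of all genes), with a peroxin median of -0.49. A linear model gene by gene without moderation left 3 genes downregulated, all 3 among the enzymes and transporters, with 3 of these lower and 0 of the 45 higher at the adjusted p (2.75% and 4.18% of all genes). The peroxins that passed the adjusted p were 3 in place of 5 with no filter, with 10 reads in any library, with a pseudocount of 1 CPM and without the abundance trend. Median-of-ratios and upper quartile scaling moved the median of all genes from 0.07 to 0.00 and that of the peroxins to -0.75 under each. The cause of these changes was not tested.

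Signs turned for 5 genes, of which Amacr had a log2 fold change of -0.49 in all 6 libraries and the others lay between -0.04 and 0.25. With 1 library left out Abcd4 ran from -0.17 to 0.48, Pex2 from -0.13 to 0.093, Pex11a from -0.056 to 0.33 and Pxmp2 from -0.11 to 0.0061. In the 4 libraries Abcd4 was -0.16, Pex2 0.19, Pxmp2 0.047 and Amacr 0.20.

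With the replicate number as a block, 8 genes were downregulated, as without it, and 3 peroxins (Pex3, Pex6 and Pex13) passed the adjusted p of limma. Pex7, Pex14 and Pex11g, which passed without the block, did not (adjusted p = 0.109, 0.0930 and 0.114). The numbers were not taken to pair the libraries, since libraries of the same number deviated from their group means with correlations of 0.52, -0.39 and 0.52.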
